A study of Mus musculus with 15 samples.

Results

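The genes described here are 33 known or suspected targets of the transcription factor p53 that lie outside its feedback core of Mdm2, Cdkn1a and related genes. They act in cell cycle arrest, survival and death, DNA repair, and metabolism and stress. Each gene was read from the array feature (probe set) annotated to it alone chosen by the highest mean over all 15 arrays, a value blind to the groups. The list itself was selected on knowledge of how p53 targets behaved in these data. Of the 33 genes, 31 had such a probe set, of 18193 genes with one in the series, and 28 lay high enough to be tested, of 13703 genes tested.

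All cells were macrophages grown from mouse bone marrow for 7 days with M-CSF, the factor that drives macrophage differentiation. The groups, with 3 arrays each, were M2 cells given nutlin-3a, M2 cells given 10058F4, M2 cells polarised with IL-4 and IL-13, M1 cells activated with LPS and interferon-gamma, and M0 cells left untreated. Nutlin-3a keeps MDM2 from binding p53, and 10058F4 blocks the pairing of MYC with MAX. For neither agent do the sources used here give a dose, an exposure time or a vehicle. Samples are labelled as biological replicates but not tied to separate mice, so the spread behind the p-values may be technical.

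p53 is a transcription factor held at a low level by MDM2, which marks it for degradation. When it is released from MDM2, it binds pairs of a short DNA half-site and raises genes that stop the cell cycle, repair DNA, alter metabolism or promote cell death. Many of its targets also answer to other signals, and in macrophages some of the genes below are known from responses to stress or nutrients.

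Values are log2 expression, so a difference of 1 is a 2-fold change, and levels of different genes are not set against each other, since probe sets differ in brightness. Changes are called at an adjusted p under 0.05 from limma's linear model over all tested genes, and errors of differences are standard errors (SE). The number of arrays, 3 per group, limits the precision of every value. Across probe sets, arrays of 1 group had pairwise r of 0.989 to 0.997, lowest for M1 replicate 2, without which 9 of the genes below were higher and 14 lower in M1 against M0. Of 10 macrophage markers, 10 lay above the filter level on every array of the groups other than M1 and 9 did so in M1 cells. Their mean level was 11.22 to 11.34 on M1 arrays and 11.54 to 11.78 on the others. Of these markers, 4 rose and 4 fell in M1 against M0. The M1 mean leans on Mrc1, which had the lowest difference (-6.09). Mrc1 read 3.98, 5.60 and 4.63 in M1 and 10.64, 10.98 and 10.86 in M0 cells. In M1 against M0, markers of other cells moved as well, where 33.6% of all tested genes were higher and 39.1% lower. There 4 of 4 tested T and NK cell markers rose (mean list level 4.81 to 4.91 on M1 arrays, against 4.41 to 4.52 on M0 arrays). Those rises were 0.34 to 0.59, at levels near the filter level of 4.34 to 4.52. Of 7 neutrophil markers 4 rose and 1 fell (5.33 to 5.46, against 5.08 to 5.31), and 2 of 3 B cell markers rose (4.60 to 4.76, against 4.43 to 4.58). The B cell levels too lie near the filter level. Of 5 dendritic cell markers 2 rose, Xcr1 by 2.50 and Ccr7 by 1.59 (5.24 to 5.66, against 4.43 to 4.69), and of 5 stromal markers 1 fell. With nutlin-3a against M2, none of these lists of other cells had a rise and 2 of 3 B cell markers fell. Of the 10 macrophage markers 1 rose there, by 1.29, and 2 fell. Of all tested genes, 9.56% were higher and 5.85% lower in that comparison. The part of these markers in the differences below was not tested. The 3' minus 5' difference of beta-actin, a sign of RNA integrity, averaged 0.178 ± 0.0444 in M1 and 0.351 ± 0.0543 in M0 cells (SD, n = 3 each). It averaged 0.453 ± 0.0346 with nutlin-3a and 0.382 ± 0.0302 in M2 cells (SD, n = 3 each), and for both pairs the exact two-sided permutation p was 0.1, the smallest that 3 arrays against 3 can give. For Gapdh it averaged -0.162 ± 0.0347 in M1 and -0.273 ± 0.015 in M0 cells, the opposite sign of difference to beta-actin (exact permutation p = 0.1), and -0.281 ± 0.0136 with nutlin-3a and -0.283 ± 0.0321 in M2 cells (SD, n = 3 each, exact permutation p = 1). The part of RNA integrity in the differences below was not tested. In bulk RNA, fewer cells expressing a gene and less of its RNA per cell cannot be told apart.

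Because p53 reads DNA directly, the stretches of promoter that hold an exact match to the p53 half-site consensus are shown first. The 300 bases from 250 before to 50 after each annotated start were searched in RefSeq's promoter table of GRCm38.p6, which held 25 of the 33 genes, and the half-site consensus reads the same on both strands. A match of these 10 bases was found for 5 of the 25 genes (20%), and 9.55% of all 27025 genes in the table had one. A match is a description of the sequence and not evidence of binding. The matched bases are in capitals, and their first base is placed relative to the annotated start. For Polk, Sesn1 and Rps27l the whole window lies inside the annotated gene, so the start used is not the outermost one. Those genes span 96480687 to 96542579 (Polk), 41810574 to 41908436 (Sesn1) and 66944624 to 66949522 (Rps27l).
Rps27l, chr9:66946291-66946320 on the plus strand, half-site at -107: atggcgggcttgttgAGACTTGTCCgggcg
Rps27l, chr9:66946193-66946222 on the plus strand, half-site at -210: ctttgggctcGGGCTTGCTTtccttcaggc
Aen, chr7:78895927-78895956 on the plus strand, half-site at -121 from 1 start and 10 bases after the other: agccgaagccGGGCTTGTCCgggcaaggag
Ei24, chr9:36797325-36797354 on the minus strand, half-site at -10: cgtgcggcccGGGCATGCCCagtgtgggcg
Polk, chr13:96519399-96519428 on the minus strand, half-site at -231: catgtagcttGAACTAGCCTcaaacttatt
Sesn1, chr10:41887256-41887285 on the plus strand, half-site at -173: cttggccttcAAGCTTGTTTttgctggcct
The first Rps27l stretch is the one window among the listed genes in which 2 half-sites stand side by side with at most 1 mismatch. Of its 20 bases 19 match the doubled consensus, and 0.107% of all genes in the table have such a window. Of the 5 genes shown, Rps27l, Aen, Ei24 and Polk were higher with nutlin-3a and Sesn1 was lower, as described below.

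M2 cells given nutlin-3a were compared with M2 cells to read the response of these genes to the agent. The release of p53 from MDM2 was not measured on these arrays. Of the 28 tested genes, 22 rose and 2 fell, against 9.56% of all tested genes higher and 5.85% lower. The median difference of the 28 genes was 0.73, against 0.009 for all tested genes. The largest rises among them were those of Phlda3, Psrc1, Zmat3 and Slc19a2, each over 5-fold. A rise of at least 2-fold was called for 10 of the 28 genes, against 0.547% of all tested genes. The groups did not overlap for 25 of the genes, with 23 above M2 (21.9% of all tested genes) and 2 below (17% of all tested genes). The list was drawn up with results of these data known, so its counts describe the list and do not test it.

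M1 cells were compared with M0 cells, a pair that shares no array with the first. Here 8 of the 28 genes rose and 14 fell, against 33.6% of all tested genes higher and 39.1% lower. The median difference was -0.30, against -0.005 for all tested genes. These counts depended on the scaling. With each array centred on its median, 13 of the 28 genes were higher and 10 lower, against 7619 and 3505 of 13703 tested genes. The median of the 28 genes was then 0.03, against 0.321 for all tested genes. Under both scalings the median of the 28 genes thus lay under that of all tested genes. Of all genes called, 46.2% were higher in M1 as deposited and 68.5% after centring.

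Set side by side, 12 of the 28 genes were higher with nutlin-3a and lower in M1, a combination found in 5.9% of all tested genes. These were Tob1, Trp53inp1, Aen, Zmat3, Ei24, Rrm2b, Xpc, Ercc5, Rps27l, Ak1, Ephx1 and Neat1. Another 5 genes, Btg2, Phlda3, Apaf1, Susd6 and Sesn2, were higher in both, against 1.93% of all tested genes. A further 5, Psrc1, Ddias, Polk, Tigar and Slc19a2, rose with nutlin-3a and were not called in M1, against 1.73% of all tested genes. With centred arrays 9 of the 12 genes kept both calls and Aen, Rrm2b and Neat1 did not, Aen with its M1 direction turned to 0.09. Of the 12 genes, Aen and Neat1 lost the pair of calls with the mean of all probe sets, Aen and Rrm2b with repeated quantile normalization, Xpc and Neat1 without M2 replicate 1, Neat1 without M2 replicate 2 or nutlin-3a replicate 3, and Xpc without nutlin-3a replicate 2. Rps27l and Ak1 had no tested probe set free of a suffix. Aen also lost its M1 call with only the arrays of the groups compared, as did Phlda3. The difference between the nutlin-3a effect and the M1 effect was also fitted: it was called higher for 20 genes (36.9% of all tested genes) and lower for 3 (28.5% of all tested genes). For the 12 opposed genes its sign follows from how they were picked and tests nothing further.

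**Figure D1:**
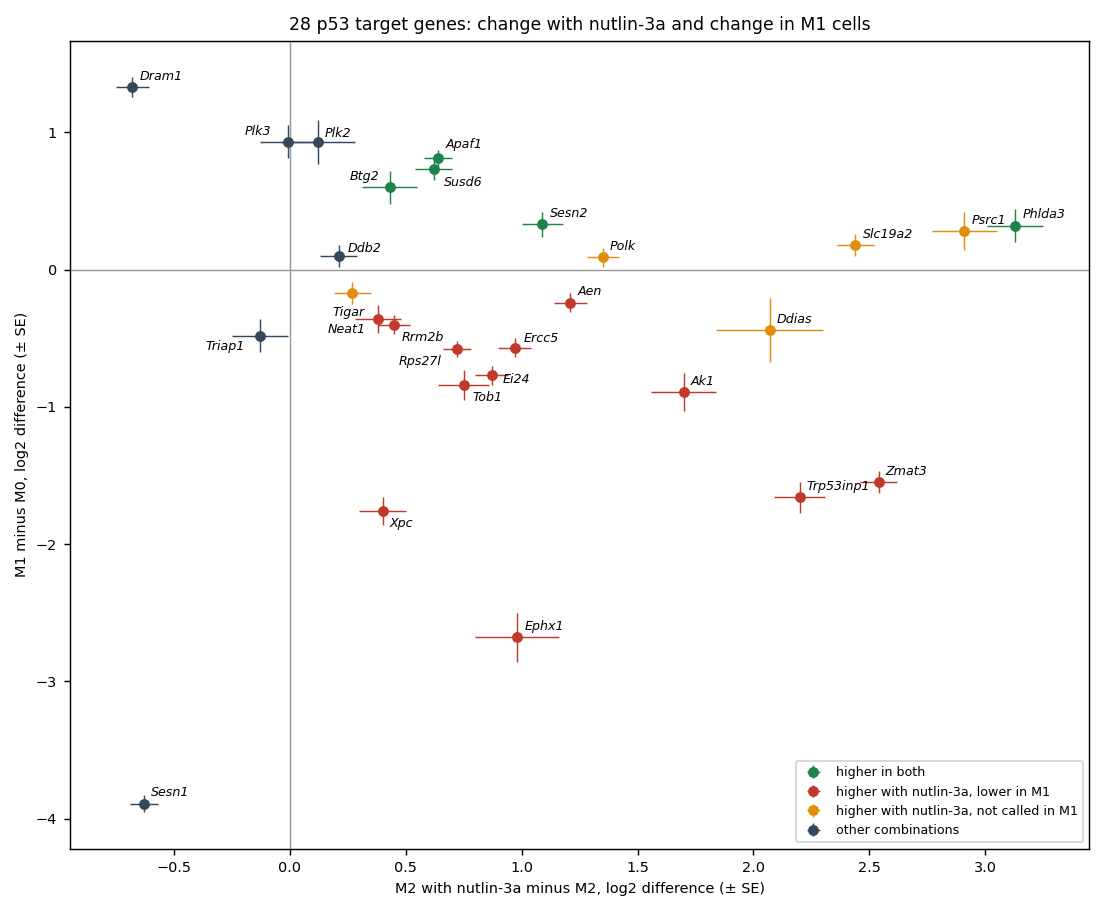
Each point is 1 of 28 p53 target genes, with its log2 difference between M2 with nutlin-3a and M2 on the x axis and between M1 and M0 on the y axis, and SE bars. The 12 red genes lie to the right of 0 and below 0, and Sesn1, at -3.89 in M1, lies lowest.

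Among the genes of cell cycle control, 3 of 5 rose with nutlin-3a, against 9.56% of all tested genes, and 2 were not called. None fell, against 5.85% of all tested genes, nor did any at an unadjusted p under 0.05. Psrc1, which encodes a microtubule-binding protein of the mitotic spindle, read 9.70, 9.66 and 9.67 on the nutlin-3a arrays, against 6.69, 6.87 and 6.73 on the M2 arrays. It rose 7.53-fold (log2 difference 2.91, SE 0.14, adjusted p = 1.14e-08), and its nutlin-3a arrays stood apart from all other groups. In M1 cells Psrc1 read 5.81, 5.38 and 6.03, against 5.39, 5.50 and 5.50 in M0 cells, which overlap. The M1 difference of 0.28 was not called (SE 0.14, adjusted p = 0.0845) and was called without M1 replicate 2 (0.46), with centred arrays (0.60), with array weights (0.41) and with the mean of all probe sets (0.34). A second Psrc1 probe set gave 0.96 with nutlin-3a and 0.59 in M1, so the size of the rise depended on the probe set. The first was chosen by a mean of 6.74, against 6.54 for the second, and both means include the nutlin-3a arrays. The remaining Psrc1 probe set had a mean of 3.51, under the filter level, and gives no size.

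Tob1 and Btg2 encode antiproliferative proteins of 1 family that recruit the machinery that shortens mRNA tails. Tob1 read 9.29, 9.31 and 8.98 with nutlin-3a, against 8.54, 8.63 and 8.17 in M2 cells, a rise of 0.75 (SE 0.11, adjusted p = 0.000474). In M1 cells it read 7.61, 7.72 and 7.71, against 8.48, 8.58 and 8.49 in M0 cells, and fell by 0.84 (SE 0.11, adjusted p = 9.37e-06). Neither pair of groups overlapped for Tob1. Btg2 read 8.74, 8.58 and 8.69 with nutlin-3a, against 8.32, 8.22 and 8.18 in M2 cells, and in M1 cells it read 9.19, 8.60 and 9.07, against 8.38, 8.27 and 8.40 in M0 cells. It rose by 0.43 with nutlin-3a (SE 0.12, adjusted p = 0.0241) and by 0.60 in M1 (SE 0.12, adjusted p = 0.000384). The first of these calls was lost without M2 replicate 2 (0.42) or 3 (0.40), without nutlin-3a replicate 1 (0.40) or 3 (0.42), with centred arrays (0.37) and with repeated quantile normalization (0.38).

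Plk2 and Plk3, polo-like kinases induced by stress, rose in M1 against M0, and Plk3 also rose in M2 against M0. Plk2 read 10.63, 10.38 and 11.08 in M1 cells, against 9.61, 9.68 and 10.01 in M0 cells, a rise of 0.93 (SE 0.16, adjusted p = 0.000101). Plk3 read 6.96, 6.91 and 6.94 in M1 cells, against 6.03, 5.96 and 6.03 in M0 cells, also a rise of 0.93 (SE 0.12, adjusted p = 7.6e-06). With nutlin-3a the differences from M2 were 0.12 for Plk2 (SE 0.16) and -0.01 for Plk3 (SE 0.12), neither called, and the sign of each turned under at least 1 alternative. The difference between the nutlin-3a effect and the M1 effect was called lower for Plk2 (-0.80, SE 0.22, adjusted p = 0.0055) and for Plk3 (-0.94, SE 0.17, adjusted p = 0.000231). For Plk3 the M2 level was itself raised over M0, by 1.09 (SE 0.12), and had the highest mean of the 5 groups. Plk3 with nutlin-3a was not called different from M1 (0.15, SE 0.12). Plk2 in M2 was level with M0 (0.01, SE 0.16).

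Of 9 tested genes of survival and cell death, 8 rose with nutlin-3a, against 9.56% of all tested genes. None fell, against 5.85% of all tested genes, nor did any at an unadjusted p under 0.05. Phlda3, which encodes a membrane-binding repressor of the kinase AKT, read 10.07, 10.13 and 10.13 with nutlin-3a, against 6.88, 6.98 and 7.07 in M2 cells. That 8.75-fold rise (3.13, SE 0.12, adjusted p = 9.58e-10) was the largest among the 28 genes. Phlda3 also rose in M1, by 0.32 (SE 0.12, adjusted p = 0.022), at 7.06, 6.80 and 7.35 against 6.84, 6.56 and 6.85 in M0 cells. Those M1 and M0 groups overlap, and the call was lost without M0 replicate 2 (0.23) or M1 replicate 3 (0.18) and with only the arrays of the groups compared (0.32).

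Zmat3, an RNA-binding zinc finger protein, and Trp53inp1, a stress protein that promotes autophagy and death, moved in opposite directions in the 2 comparisons. Zmat3 read 10.37, 10.38 and 10.27 with nutlin-3a, against 7.79, 7.92 and 7.70 in M2 cells. In M1 cells it read 6.54, 6.30 and 6.46, against 7.92, 8.05 and 7.97 in M0 cells. Zmat3 was 5.8-fold higher with nutlin-3a (2.54, SE 0.08, adjusted p = 4.27e-10) and 2.92-fold lower in M1 (-1.55, SE 0.08, adjusted p = 6.95e-10), and in neither comparison did the groups overlap. Trp53inp1 read 12.11, 11.83 and 11.99 with nutlin-3a, against 9.89, 9.70 and 9.74 in M2 cells. In M1 cells Trp53inp1 read 8.37, 8.32 and 8.63, against 10.28, 9.98 and 10.04 in M0 cells. It was 4.6-fold higher with nutlin-3a (2.20, SE 0.11, adjusted p = 2.46e-08) and 3.16-fold lower in M1 (-1.66, SE 0.11, adjusted p = 8.97e-09). Its other probe set moved the same ways by less, at 0.92 with nutlin-3a and -0.29 in M1. Of the differences between the nutlin-3a effect and the M1 effect, 4.08 for Zmat3 (SE 0.12) and 3.86 for Trp53inp1 (SE 0.16) were the largest among the 28 genes, on the probe sets used.

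Ei24, a protein of the endoplasmic reticulum with a part in autophagy, and Aen, an apoptosis-enhancing nuclease, carry the half-site matches shown above. Ei24 read 10.00, 10.04 and 10.01 with nutlin-3a, against 9.09, 9.14 and 9.19 in M2 cells, a rise of 0.87 (SE 0.07, adjusted p = 1.26e-06). In M1 cells Ei24 read 8.70, 8.49 and 8.60, against 9.40, 9.41 and 9.28 in M0 cells, and fell by 0.77 (SE 0.07, adjusted p = 1.09e-07). Both Ei24 shifts left no overlap between the groups compared. Aen read 8.51, 8.45 and 8.46 with nutlin-3a, against 7.19, 7.29 and 7.31 in M2 cells, a rise of 1.21 (SE 0.07, adjusted p = 1.52e-07). In M1 cells Aen read 6.85, 6.56 and 6.71, against 6.96, 6.94 and 6.94 in M0 cells. That fall by 0.24 (SE 0.07, adjusted p = 0.0109) became 0.09 with centred arrays and 0.04 with repeated quantile normalization, neither called, so its direction depended on the scaling. The fall was also not called with only the arrays of the groups compared (-0.24). Other Aen probe sets above the filter level gave 1.22 and 0.66 with nutlin-3a, and -0.13 and 0.02 in M1, neither called.

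Apaf1, the scaffold on which initiator caspases are activated, and Susd6 rose in both comparisons. Apaf1 read 8.79, 8.88 and 8.79 with nutlin-3a, against 8.22, 8.15 and 8.18 in M2 cells, a rise of 0.64 (SE 0.06, adjusted p = 1.71e-05). In M1 cells Apaf1 read 9.61, 9.73 and 9.72, against 8.91, 8.88 and 8.82 in M0 cells, a rise of 0.81 (SE 0.06, adjusted p = 3.57e-08). Susd6 read 9.37, 9.43 and 9.37 with nutlin-3a, against 8.87, 8.68 and 8.76 in M2 cells, and it rose by 0.62 (SE 0.08, adjusted p = 0.000183). The Susd6 arrays of M1 cells read 10.00, 9.65 and 9.77, against 9.12, 9.05 and 9.05 in M0 cells, and it rose by 0.73 (SE 0.08, adjusted p = 1.42e-06). No group overlapped its counterpart for either gene, and for both M1 cells had the highest level of the 5 groups. The nutlin-3a effect and the M1 effect were not called different for Apaf1 (-0.18, 95% interval -0.37 to 0.01) or Susd6 (-0.11, 95% interval -0.36 to 0.13), while centred arrays gave Apaf1 -0.56 and Susd6 -0.50, both called, and Apaf1 was called with repeated quantile normalization (-0.34) and with the mean of all probe sets (-0.18).

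Ddias, an inhibitor of apoptosis after DNA damage as described in human cells, read 7.21, 7.29 and 7.03 with nutlin-3a, against 4.86, 5.39 and 5.06 in M2 cells. It was 4.2-fold higher (2.07, SE 0.23, adjusted p = 3.77e-05). Its M1 arrays (4.91, 4.73 and 4.65) overlapped those of M0 (4.60, 5.71 and 5.30), and the M1 difference of -0.44 (SE 0.23) was called only without M0 replicate 1, at -0.74, or with the replicate block. Triap1, a mitochondrial protein that inhibits apoptosis, read 10.39, 10.38 and 10.29 with nutlin-3a, against 10.34, 10.61 and 10.51 in M2 cells, and these groups overlap. The Triap1 difference of -0.13 was not called (SE 0.12, 95% interval -0.38 to 0.12). In M1 cells Triap1 read 9.07, 9.57 and 9.03, against 9.77, 9.70 and 9.63 in M0 cells, and fell by 0.48 (SE 0.12, adjusted p = 0.00188), which shrank to -0.16 and was not called with centred arrays.

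The remaining genes of this role lay low. Perp (2.41 to 2.85), the death receptor gene Tnfrsf10b (3.19 to 3.99) and Eda2r (3.21 to 4.31), another receptor of the TNF receptor family, were under the filter level of 4.34 to 4.52 on all 15 arrays and were not tested. Eda2r read 4.31, 4.08 and 4.17 with nutlin-3a, against 3.64, 3.56 and 3.50 in M2 cells, and its nutlin-3a arrays were its highest. All 28 tested genes lay above the filter level on 15 of 15 arrays.

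**Figure D2:**
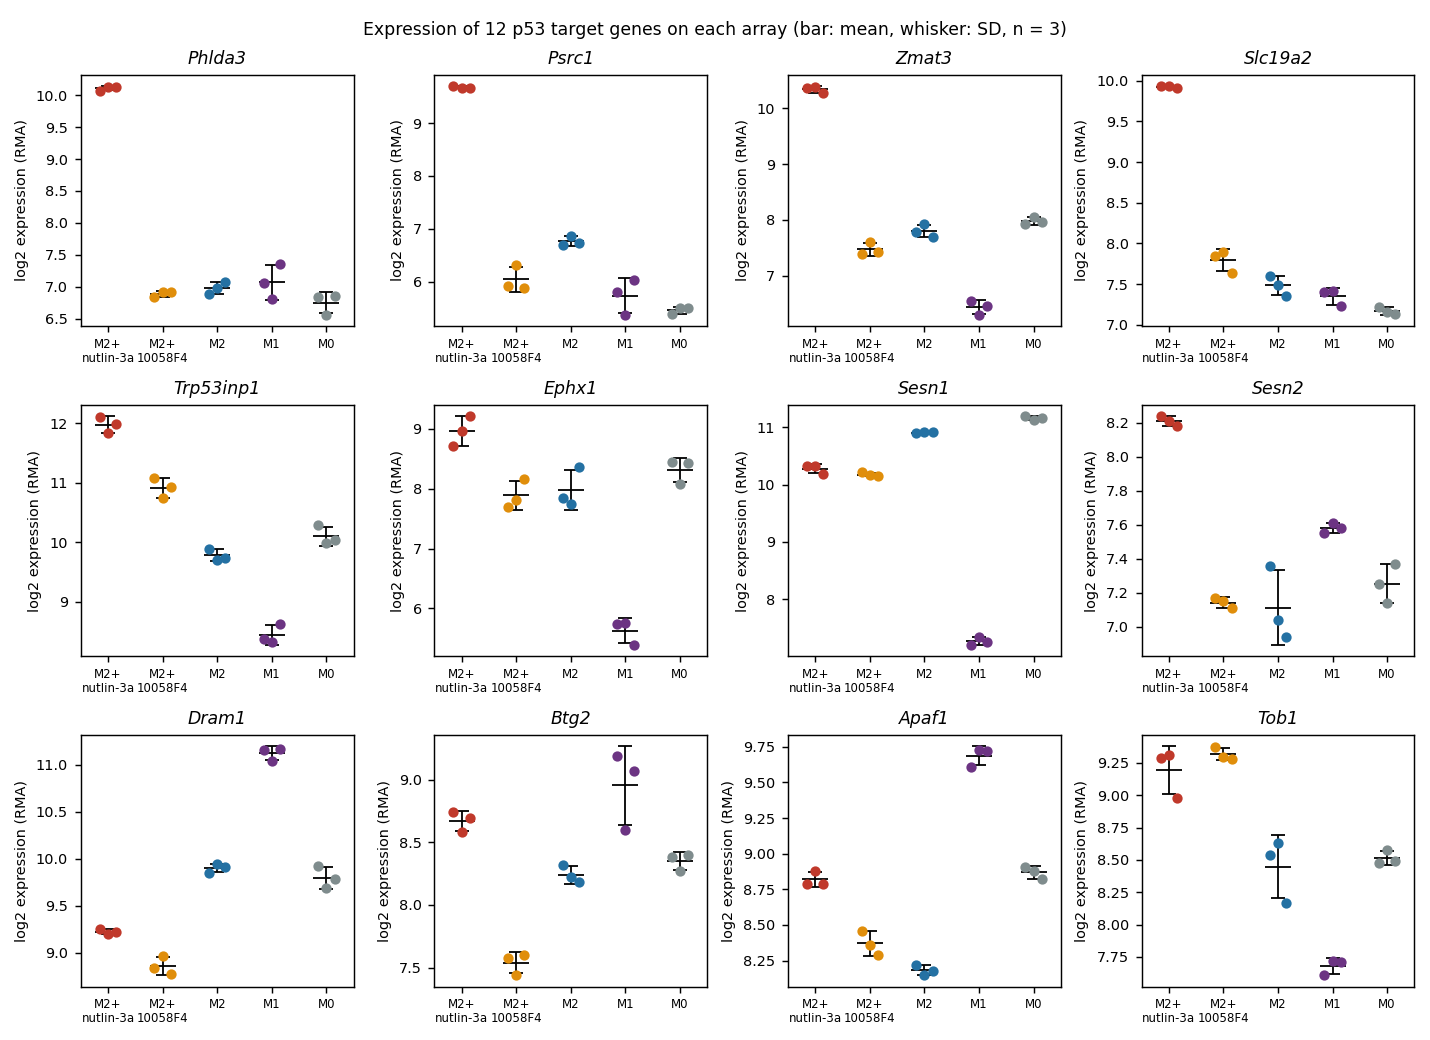
Log2 expression of 12 p53 target genes on each of the 15 arrays, with the group mean as a bar and the SD as a whisker (n = 3). For Phlda3, Psrc1, Zmat3 and Slc19a2 the nutlin-3a arrays stand above all others, while Sesn1 on the M1 arrays lies between 7.21 and 7.34, below all others.

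Of 6 genes of DNA repair and damage tolerance, 5 rose with nutlin-3a, against 9.56% of all tested genes. In M1 cells 4 fell, against 39.1% of all tested genes, and 2 were not called. Polk, the polymerase kappa that copies past damaged bases, read 9.06, 9.07 and 8.93 with nutlin-3a, against 7.72, 7.64 and 7.64 in M2 cells. It rose 2.55-fold (1.35, SE 0.07, adjusted p = 3.82e-08). In M1 cells Polk read 7.43, 7.57 and 7.36, against 7.36, 7.47 and 7.28 in M0 cells, and this overlap gave a difference of 0.09 that was not called (SE 0.07), though centred arrays gave 0.41 and repeated quantile normalization 0.38, both called.

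Ercc5, the nuclease that cuts on the 3' side of damage in nucleotide excision repair, read 7.70, 7.65 and 7.78 with nutlin-3a, against 6.73, 6.70 and 6.79 in M2 cells. In M1 cells Ercc5 read 6.43, 6.63 and 6.48, against 7.20, 7.07 and 6.99 in M0 cells. It rose by 0.97 with nutlin-3a (SE 0.07, adjusted p = 8.82e-07) and fell by 0.57 in M1 (SE 0.07, adjusted p = 4.93e-06). Xpc, the protein that first recognises damage in that pathway, read 6.85, 6.93 and 6.77 with nutlin-3a, against 6.36, 6.41 and 6.58 in M2 cells. In M1 cells Xpc read 5.59, 5.37 and 5.29, against 7.35, 7.10 and 7.07 in M0 cells, and was 3.38-fold lower (-1.76, SE 0.10, adjusted p = 7.28e-10). The groups were apart in both comparisons of Xpc. Its rise with nutlin-3a was smaller, 0.40 (SE 0.10, adjusted p = 0.0119), and was not called without M2 replicate 1 (0.35) or nutlin-3a replicate 2 (0.36).

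Ddb2, which binds ultraviolet damage, was the one repair gene called in neither comparison. It read 6.78, 6.78 and 6.82 with nutlin-3a, against 6.56, 6.53 and 6.66 in M2 cells, a difference of 0.21 (SE 0.08, adjusted p = 0.103, 95% interval 0.03 to 0.38) with no overlap, and 0.22 and called with array weights. Its M1 difference was 0.10 (SE 0.08, adjusted p = 0.267), while a second probe set gave -0.86 and centred arrays gave 0.43, called.

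Rrm2b, the p53-inducible subunit of the enzyme that makes deoxynucleotides, read 7.68, 7.81 and 7.81 with nutlin-3a, against 7.25, 7.28 and 7.42 in M2 cells, and rose by 0.45 (SE 0.07, adjusted p = 0.000556). In M1 cells Rrm2b read 7.20, 7.30 and 7.24, against 7.73, 7.58 and 7.62 in M0 cells, a fall by 0.40 (SE 0.07, adjusted p = 0.000111) that was -0.07 with centred arrays and -0.09 with repeated quantile normalization, neither called. Rps27l, a close relative of ribosomal protein S27, read 12.07, 12.12 and 12.13 with nutlin-3a, against 11.37, 11.41 and 11.37 in M2 cells. It rose by 0.72 (SE 0.06, adjusted p = 3.44e-06), and its other 2 probe sets gave 0.73 and 0.75. In M1 cells Rps27l read 10.79, 10.69 and 10.80, against 11.26, 11.43 and 11.32 in M0 cells, and fell by 0.58 (SE 0.06, adjusted p = 8.28e-07). The probe set used and 1 other carry a suffix that marks possible cross-hybridisation, so signal from a close relative cannot be told apart there.

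Among 7 tested genes of metabolism and stress, 5 rose and 2 fell with nutlin-3a, against 9.56% and 5.85% of all tested genes. Slc19a2, a thiamine transporter, read 9.93, 9.93 and 9.91 with nutlin-3a, against 7.60, 7.49 and 7.36 in M2 cells. It rose 5.43-fold (2.44, SE 0.08, adjusted p = 4.27e-10), and a second probe set gave 2.59. In M1 cells Slc19a2 read 7.40, 7.42 and 7.23, against 7.22, 7.16 and 7.13 in M0 cells. The groups did not overlap, yet the difference of 0.18 missed the threshold (SE 0.08, adjusted p = 0.0653). It was called without M1 replicate 3 (0.24), with centred arrays (0.50) and with repeated quantile normalization (0.47).

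Ak1, the adenylate kinase that balances adenine nucleotides, read 8.30, 8.28 and 8.12 with nutlin-3a, against 6.44, 6.36 and 6.78 in M2 cells. In M1 cells Ak1 read 5.03, 5.06 and 5.60, against 6.05, 6.12 and 6.18 in M0 cells. It rose by 1.70 with nutlin-3a (SE 0.14, adjusted p = 3.56e-06) and fell by 0.89 in M1 (SE 0.14, adjusted p = 6.45e-05), with no overlap in either. Ephx1, the microsomal epoxide hydrolase that detoxifies reactive epoxides, read 8.71, 8.97 and 9.21 with nutlin-3a, against 7.84, 7.74 and 8.37 in M2 cells, a rise of 0.98 (SE 0.18, adjusted p = 0.00254). In M1 cells Ephx1 read 5.74, 5.76 and 5.39, against 8.44, 8.08 and 8.43 in M0 cells, which made it 6.42-fold lower (-2.68, SE 0.18, adjusted p = 8e-09).

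The sestrins, which restrain the growth kinase mTORC1 under stress, did not move together. Sesn2 read 8.24, 8.21 and 8.18 with nutlin-3a, against 7.36, 7.04 and 6.94 in M2 cells, a rise of 1.09 (SE 0.09, adjusted p = 3.44e-06), and its other probe set gave 1.51. Sesn2 in M1 cells read 7.55, 7.61 and 7.58, against 7.25, 7.14 and 7.37 in M0 cells, and rose by 0.33 (SE 0.09, adjusted p = 0.00539), which was 0.17 and not called with the mean of its probe sets. Sesn1 read 10.32, 10.33 and 10.18 with nutlin-3a, against 10.89, 10.92 and 10.91 in M2 cells, and fell by 0.63 (SE 0.06, adjusted p = 1.07e-05). In M1 cells Sesn1 read 7.21, 7.34 and 7.26, against 11.19, 11.12 and 11.16 in M0 cells. This 14.8-fold lower level (-3.89, SE 0.06, adjusted p = 5.78e-15) was the largest change of any of the 28 genes in either comparison. Other probe sets of Sesn1 above the filter level gave -4.23 and -4.51 in M1. With nutlin-3a they gave -0.06 and -0.37, smaller than on the probe set used and neither called in a fit of all probe sets.

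**Figure D3:**
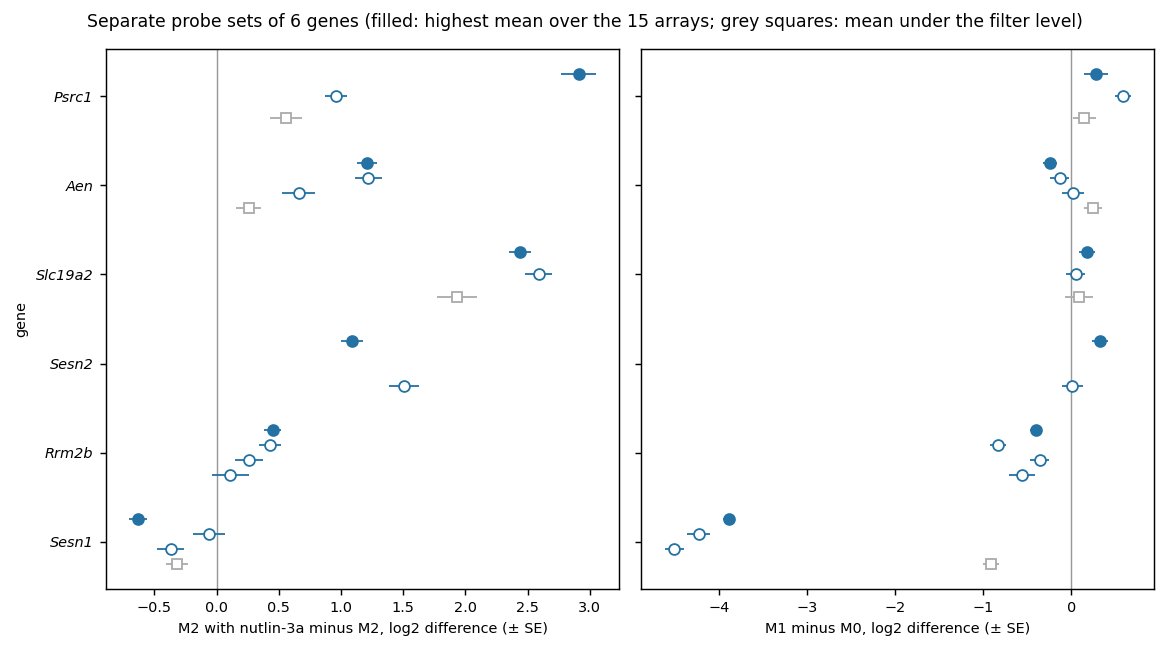
Log2 differences (± SE) of every probe set of 6 of the genes, chosen after their values were seen, between M2 with nutlin-3a and M2 (left panel) and between M1 and M0 (right panel). Filled points mark the probe set with the highest mean, and grey squares those whose mean lies under the highest array's filter level, which give no size; of the others, those of Psrc1 lie at 2.91 and 0.96 with nutlin-3a and those of Slc19a2 at 2.44 and 2.59.

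Tigar, an enzyme that lowers glycolytic flux, read 6.28, 6.43 and 6.27 with nutlin-3a, against 6.11, 5.99 and 6.05 in M2 cells, a small rise of 0.27 (SE 0.08, adjusted p = 0.0288). The Tigar call was lost without M2 replicate 2 (0.24) or 3 (0.27) and without nutlin-3a replicate 1 (0.30) or 2 (0.22), and a second probe set gave 0.05. The M1 difference of Tigar, -0.17 (SE 0.08, adjusted p = 0.0586), was called without M0 replicate 3 (-0.23), and it turned to 0.15 with centred arrays.

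Dram1 is a lysosomal membrane protein that promotes autophagy. It was the one gene of the 28 that was lower with nutlin-3a and higher in M1, against 2.29% of all tested genes. It read 9.25, 9.20 and 9.22 with nutlin-3a, against 9.85, 9.94 and 9.91 in M2 cells, and fell by 0.68 (SE 0.07, adjusted p = 3e-05). In M1 cells Dram1 read 11.16, 11.04 and 11.17, against 9.92, 9.69 and 9.78 in M0 cells, a 2.51-fold rise (1.33, SE 0.07, adjusted p = 7.42e-10). The groups stood apart in both comparisons. The growth factor gene Gdf15 and the mitochondrial reductase gene Fdxr had no probe set annotated to them alone.

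Neat1, the long noncoding RNA that scaffolds nuclear paraspeckles, read 11.09, 11.03 and 11.30 with nutlin-3a, against 10.69, 10.72 and 10.86 in M2 cells, a rise of 0.38 (SE 0.10, adjusted p = 0.0202). In M1 cells Neat1 read 10.14, 10.11 and 10.27, against 10.46, 10.45 and 10.67 in M0 cells, and fell by 0.36 (SE 0.10, adjusted p = 0.00587). The groups did not overlap in either comparison. The nutlin-3a call was lost without M2 replicate 1 (0.35) or 2 (0.37) and without nutlin-3a replicate 3 (0.31), both were lost with centred arrays (0.32 with nutlin-3a and -0.03 in M1), and a second probe set gave -0.01 with nutlin-3a.

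The direct comparison of M2 cells given nutlin-3a with M1 cells spans both a polarising stimulus and the agent. In it 21 of the 28 genes were higher with nutlin-3a and 5 were lower, against 38.6% and 30.8% of all tested genes. The largest gaps were those of Psrc1 (3.94, SE 0.14), Zmat3 (3.91, SE 0.08), Trp53inp1 (3.54, SE 0.11) and Ephx1 (3.33, SE 0.18), each over 10-fold, with adjusted p between 6.78e-14 and 6.56e-10. Lower with nutlin-3a than in M1 were Dram1 (-1.90, SE 0.07, adjusted p = 1.37e-11), Apaf1 (-0.86, SE 0.06), Plk2 (-0.79, SE 0.16), Susd6 (-0.42, SE 0.08) and Btg2 (-0.28, SE 0.12, adjusted p = 0.0456). The Btg2 groups overlap, and this call was lost without M1 replicate 1 (-0.16) or 3 (-0.22), without nutlin-3a replicate 1 (-0.31), 2 (-0.24) or 3 (-0.29), without the filter (-0.28) and with only the arrays compared (-0.28). Tigar, higher with nutlin-3a than in M1 by 0.42 (SE 0.08), was at 0.12 and not called with centred arrays. Over the 5 groups, nutlin-3a cells had the highest mean for 17 of the 28 genes, against 13.8% of all tested genes, and the lowest for none, against 10.1%. M1 cells had the highest mean for 6 genes (39.1% of all tested genes) and the lowest for 15 (40.9%).

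The M2 state was set against M0 to see where these genes stood before the agents. Of the 28 genes 7 were higher and 8 lower, against 12.7% and 18.4% of all tested genes. Higher in M2 were Psrc1 (1.30, SE 0.14, adjusted p = 7.65e-06), Plk3 (1.09, SE 0.12) and Triap1 (0.78, SE 0.12). Xpc was lower in M2 (-0.72, SE 0.10, adjusted p = 5.16e-05), as was Apaf1 (-0.69, SE 0.06, adjusted p = 1.72e-06). With centred arrays 8 of the genes were higher and 4 lower, and the counts over all tested genes moved too. Of 13703 tested genes, 2801 were then higher and 1791 lower, against 1735 and 2518 as deposited. This comparison shares its M0 arrays with M1 against M0 and its M2 arrays with both agents.

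M2 cells given 10058F4 were set against the same 3 M2 arrays, and the agents are therefore given side by side without an overlap. With 10058F4, 6 of the 28 genes rose and 9 fell, against 10.6% and 10.2% of all tested genes. Trp53inp1 read 11.07, 10.74 and 10.93 with 10058F4, against the M2 values above, and rose by 1.14 (SE 0.11, adjusted p = 8.42e-06). Other rises were those of Tob1 (0.87, SE 0.11), Xpc (0.54, SE 0.10), Ercc5 (0.48, SE 0.07), Rrm2b (0.36, SE 0.07) and Slc19a2 (0.31, SE 0.08). The Slc19a2 call was lost without M2 replicate 3 (0.25) or 10058F4 replicate 1 (0.28) or 2 (0.26), and that of Ercc5 with the mean of its probe sets (0.16), one of which lies under the filter level. Among the falls, Dram1 read 8.84, 8.96 and 8.77 with 10058F4, against the M2 values above (-1.04, SE 0.07, adjusted p = 2.6e-07). Plk2 also fell by 1.04 (SE 0.16), Sesn1 fell by 0.74 (SE 0.06), Psrc1 by 0.72 (SE 0.14), Btg2 by 0.70 (SE 0.12) and Neat1 by 0.65 (SE 0.10).

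Between the agents, 20 of the 28 genes were higher with nutlin-3a than with 10058F4, against 4.24% of all tested genes. By limma's test 0 were lower, also at an unadjusted p under 0.05, against 2.72% of all tested genes lower. Psrc1 (3.63, SE 0.14), Phlda3 (3.22, SE 0.12), Zmat3 (2.87, SE 0.08), Ak1 (2.31, SE 0.14) and Slc19a2 (2.13, SE 0.08) were over 4-fold higher with nutlin-3a, with adjusted p between 5.76e-11 and 1.45e-07. Trp53inp1, which each agent raised, was 2.09-fold higher with nutlin-3a (1.06, SE 0.11, adjusted p = 3.48e-05). Dram1 and Btg2 were higher with nutlin-3a than with 10058F4 as well, by 0.36 (SE 0.07) and 1.13 (SE 0.12).

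**Figure D4:**
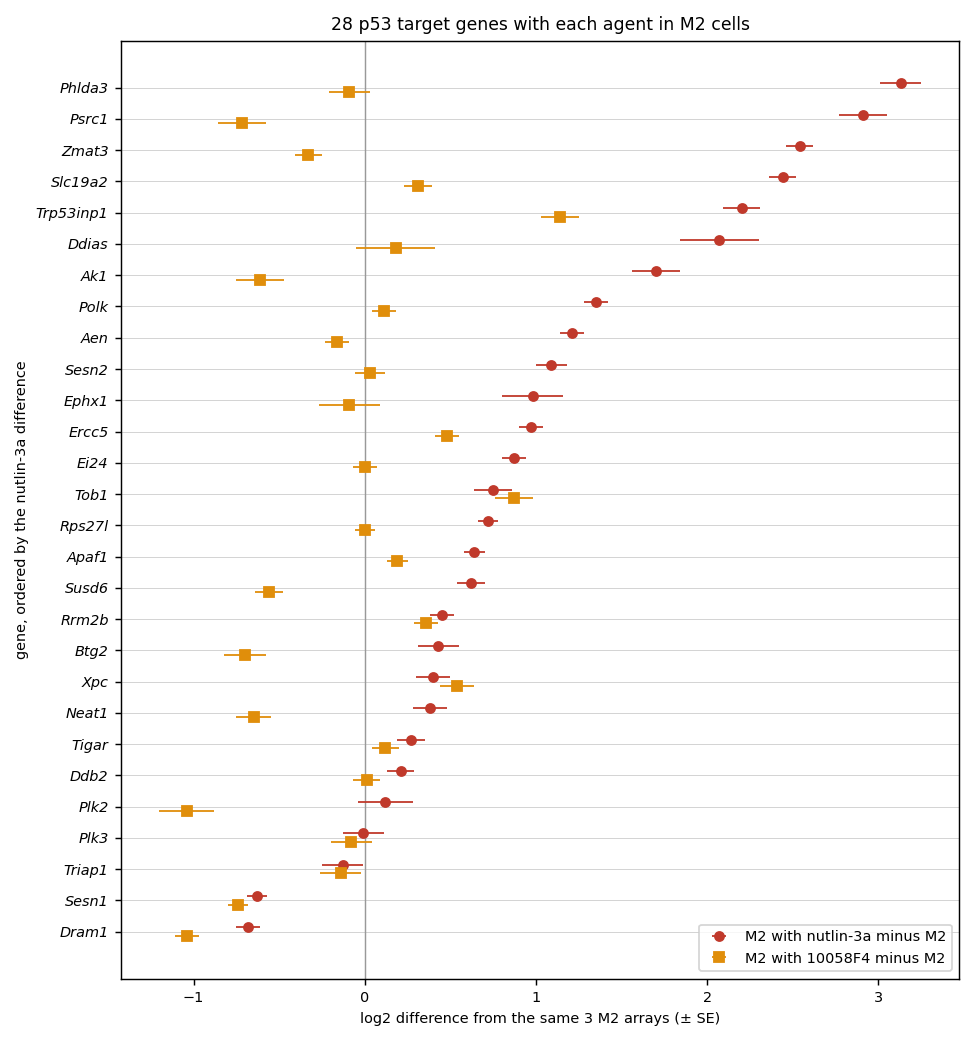
Log2 differences (± SE) of the 28 genes from the same 3 M2 arrays, for M2 with nutlin-3a (circles) and M2 with 10058F4 (squares), ordered by the nutlin-3a difference. Phlda3 and Psrc1 lie farthest right for nutlin-3a at 3.13 and 2.91, where 10058F4 gives -0.09 and -0.72.

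For context, the lists below stand against 9.56% of all tested genes higher and 5.85% lower with nutlin-3a, and 33.6% and 39.1% in M1. The feedback and apoptosis targets of p53, kept apart from the 28 genes, gave 7 of 8 higher with nutlin-3a and none lower, also at an unadjusted p under 0.05 (median 1.35). Mdm2, the inhibitor of p53, rose by 1.99 (SE 0.09, adjusted p = 7.73e-09), the BH3-only gene Pmaip1 by 1.79 (SE 0.09) and the cell cycle inhibitor Cdkn1a by 1.70 (SE 0.06). In M1 cells 3 of these 8 rose and 2 fell: the death receptor Fas by 2.91 (SE 0.15), Cdkn1a by 2.27 (SE 0.06) and Mdm2 by 1.84 (SE 0.09) on the rising side, and Ppm1d (-1.01, SE 0.08) and Ccng1 (-0.28, SE 0.06) on the falling side. Among 20 regulators of p53, 6 rose and 3 fell with nutlin-3a, led by the p53 inhibitor Mdm4 (1.05, SE 0.10, adjusted p = 1.04e-05), and in M1 4 rose and 10 fell, with the checkpoint kinases Chek1 (-2.32, SE 0.30) and Atr (-1.93, SE 0.06) lower and the p53 cofactor Daxx higher (2.26, SE 0.07).

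Other gene groups moved beside these. Of all tested genes, 9.56% rose and 5.85% fell with nutlin-3a, and 33.6% rose and 39.1% fell in M1. Of 19 mitosis genes 17 fell and none rose with nutlin-3a, also at an unadjusted p under 0.05 (median -1.16), and 18 fell and 1 rose in M1 (median -2.57). Their mean level was 6.17 to 6.63 on nutlin-3a arrays, against 7.36 to 7.87 on M2 arrays. Ccna2, a mitotic cyclin, fell by 2.07 with nutlin-3a (SE 0.31, adjusted p = 0.000474) and by 3.09 in M1 (SE 0.31, adjusted p = 4.81e-07). Of 14 genes of the ATF4 stress response, 8 rose with nutlin-3a, with Ddit4, an inhibitor of mTORC1, at 2.52 (SE 0.15, adjusted p = 1.05e-07). None of the 14 fell in either comparison, also at an unadjusted p under 0.05. In M1 cells 13 of them rose, with Nupr1 at 3.44 (SE 0.20) and Psat1 at 3.38 (SE 0.25). The part of proliferation or of the ATF4 response in the changes of the 28 genes was not tested.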

How the data were processed

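Total RNA of 15 samples was read on 1-colour arrays. Per the submitters' processing notes, RMA made the log2 values that the authors deposited for each probe set, with no RMA version in the sources used here. RMA brings the probe intensities of arrays to one distribution, so a shift of most genes can be hidden. The deposited probe set values still differed in distribution, with a 40th percentile of 4.34 to 4.52 across arrays. Repeated quantile normalization moved the median of all tested genes in M1 against M0 from -0.005 to 0.076. Of 45101 probe sets, 64 were controls, and the platform annotation names 1 gene for 34945, several for 932 and none for 9160; 34741 probe sets had a gene ID in RefSeq's GRCm38.p6 table. Tested genes exceeded the 40th percentile of values on 3 arrays or more.

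Contrasts of limma's lmFit and eBayes (5 group means, 15 arrays, 10 residual and 3.86 prior degrees of freedom) were adjusted by Benjamini-Hochberg over 13703 genes. Sample titles gave the groups and replicate numbers. Deviations of same-numbered arrays correlated with r of 0.34 to 0.38 (nutlin-3a with M2), 0.23 to 0.42 (M2 with M0) and 0.06 to 0.26 (M1 with M0). The limit for pairing was 0.1 in every pair, so only M1 and M0 among these are not paired by number, through replicate 1 (0.06). Nutlin-3a with M1 gave 0.13 to 0.18. The fit of group means did not use the replicate numbers, so its errors and p-values leave this pairing out. Counts with the replicate block are given below. The members and lists were chosen with earlier results of these data known. Named were the called genes, up to 8 rises and 8 falls per comparison, with each array's value for genes called with nutlin-3a without overlap, uncalled genes by role, and up to 3 called genes per accompanying list. Alternatives were other filters, other choices of probe set, repeated quantile normalization, centring, fewer arrays, other eBayes settings, array weights, the replicate block and each array left out. R 4.3.3, limma 3.58.1, Python 3.11.15, pandas 2.3.3 and matplotlib 3.10.9 were used, and the test was tried on simulated data.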

Additional observations from a re-analysis of the deposited data

How the results depend on the processing

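Counts with nutlin-3a against M2 and between the agents stayed within 1.5 times of those given under every alternative run. Median centring of the arrays moved other counts, here given with those of all 13703 tested genes. In M1 against M0, 13 genes were higher (7619 of all), and 4 were lower in M2 against M0 (1791 of all). The difference of the nutlin-3a and M1 effects was lower for 6 (7129 of all). Centring also turned Aen in M1 to 0.09 and Tigar in M1 to 0.15, and the difference of effects to -0.28 for Ddb2 and -0.03 for Triap1. Repeated quantile normalization gave 0.04 for Aen in M1 and -0.21 for the Ddb2 difference of effects. The mean of all probe sets gave -0.38 for Ddb2 in M1, -0.02 for Plk2 with nutlin-3a and 0.00 for Ercc5 in M2 against M0. Plk3 with nutlin-3a was 0.02 with array weights and between -0.13 and 0.16 with 1 array left out, positive without M2 replicate 1, M2 replicate 2 or nutlin-3a replicate 1. The cause of these turns was not tested. Leaving out each array in turn, 19 to 20 genes were higher and 2 lower with nutlin-3a against M2, and 7 to 9 were higher and 14 to 15 lower in M1 against M0. With the replicate block, 22 genes were higher and 2 lower with nutlin-3a against M2, 9 higher and 16 lower in M1 against M0, and 8 higher and 8 lower in M2 against M0. In M1 the block added Ddias (-0.44), Slc19a2 (0.18) and Tigar (-0.17), where replicate 1 of M1 and M0 lay under the limit for pairing (r = 0.06). Without the filter, 23 of 31 genes were higher with nutlin-3a. Genes under the filter level have no size that these arrays can give.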
